A study of Mus musculus with 8 samples.

Results

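Chromatin-modifying enzymes were followed in antigen-specific CD8 T cells of the mouse spleen, sorted by whether they displayed the inhibitory IgG receptor FcgRIIB. The genes were taken by name: every gene in the deposited expression table whose symbol begins with Kdm, Kmt, Hdac, Dnmt, Setd, Sirt, Ezh or Kat followed by a digit, or with Tet1, Tet2 or Tet3. That gave 65 of 13204 genes. The rule used no expression value. The FcgRIIB-positive cells (4 libraries) were FcgRIIB+ CD44hi Thy1.1+ CD8+, and the FcgRIIB-negative cells (4 libraries) were FcgRIIB- CD44hi Thy1.1+ CD8+. Both fractions were gated to hold transferred OT-I T cells, whose transgenic receptor recognises an ovalbumin peptide. A dose of 1000000 of these cells was transferred 24 hours ahead of an ovalbumin-bearing skin graft, and 1000 cells per library were sorted on day 14. Each replicate number marks 1 pool of 3 spleens, from which both fractions were sorted, so the libraries are paired and single animals are not seen. The labels give no age or sex of the mice, and both groups share the graft, the transfer and the sort on CD44, Thy1.1 and CD8.

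Chromatin enzymes set or remove chemical groups on DNA and on the histone proteins around which it is wound. Acetyltransferases (Kat) and deacetylases (Hdac and the sirtuins) add and remove acetyl groups on lysines, methyltransferases (Kmt, Setd, Ezh) and demethylases (Kdm) do the same for methyl groups, and Dnmt and Tet enzymes methylate and oxidise cytosines. In CD8 T cells responding to antigen, DNA methylation by Dnmt3a and histone methylation by Ezh2, the Polycomb enzyme, are known to help silence genes of naive and memory cells, while Tet2 restrains effector expansion. Not every gene with such a name acts on histones: Setd3 methylates actin, Setd6 is known for methylating the NF-kappaB subunit RelA, and Sirt3, Sirt4 and Sirt5 are mitochondrial.

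Recovered depth lay between 5310000 and 22010000 reads in positive and between 3060000 and 17950000 reads in negative libraries, with replicates 1 and 2 deeper than replicates 3 and 4. The 10th percentile of the table's genes was 0.231 to 1.43 RPKM (reads divided by exon length in kilobases and by the library's reads in units of 1000000) in the positive and 0.208 to 3.03 RPKM in the negative group. The top of that range, 3.03 RPKM, was negative replicate 4, the shallowest library. The groups differed in markers of other cells. All 16 dendritic cell markers were called higher in positive libraries (summed level 9852 to 13431 RPKM in the positive and 546 to 2004 RPKM in the negative group), as were 15 of 17 macrophage and monocyte markers (sums of 3851 to 7737 RPKM in the positive and 1695 to 3513 RPKM in the negative group). None of these markers was at 0 in any library. All 6 basophil and mast cell markers were called higher too, 2 of them (Mcpt8 and Fcer1a) being at 0 in some negative library. Of 7 tested B and plasma cell markers 1 was called higher and 2 lower. Of 16 core T cell genes 8 were called lower (sums of 2234 to 4854 RPKM in the positive and 5896 to 9479.5 RPKM in the negative group). In each positive library the dendritic cell sum lay above the core T cell sum, and in each negative library below it. Whether the sorted fractions hold cells, or RNA, of the host was not tested. In bulk libraries fewer cells of a type and less RNA per cell cannot be told apart. The part of these cells in the enzyme values below was not tested. The scaling given near the end sets libraries to an equal core T cell level and does not separate RNA of other cells.

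Of the chromatin enzyme genes, Setd6 differed between the sorted fractions past the threshold, and no other tested member did. With the spleen pool as a block, limma on log2(RPKM + 1) called 1 of 63 tested members lower in positive cells, Setd6, and none higher (adjusted p under 0.05 over all 11946 genes tested). Over all genes tested 3.85% were called lower and 7.22% higher. At an unadjusted p under 0.05, 11 members were lower and 2 higher, against 12.3% and 11% of all genes tested. Without the block limma called no member in either direction, while it called 0.268% of genes lower and 3.03% higher. Leaving negative replicate 4 out of that fit gave no called member either, beside 0.377% of genes lower and 4.21% higher. The median log2 fold change, positive minus negative, was -0.13 over the members and -0.11 over all genes tested. The members' fold changes ran from -1.14 for Setd6 to 0.86 for Hdac9, with 42 below 0 and 21 above.

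**Figure D1:**
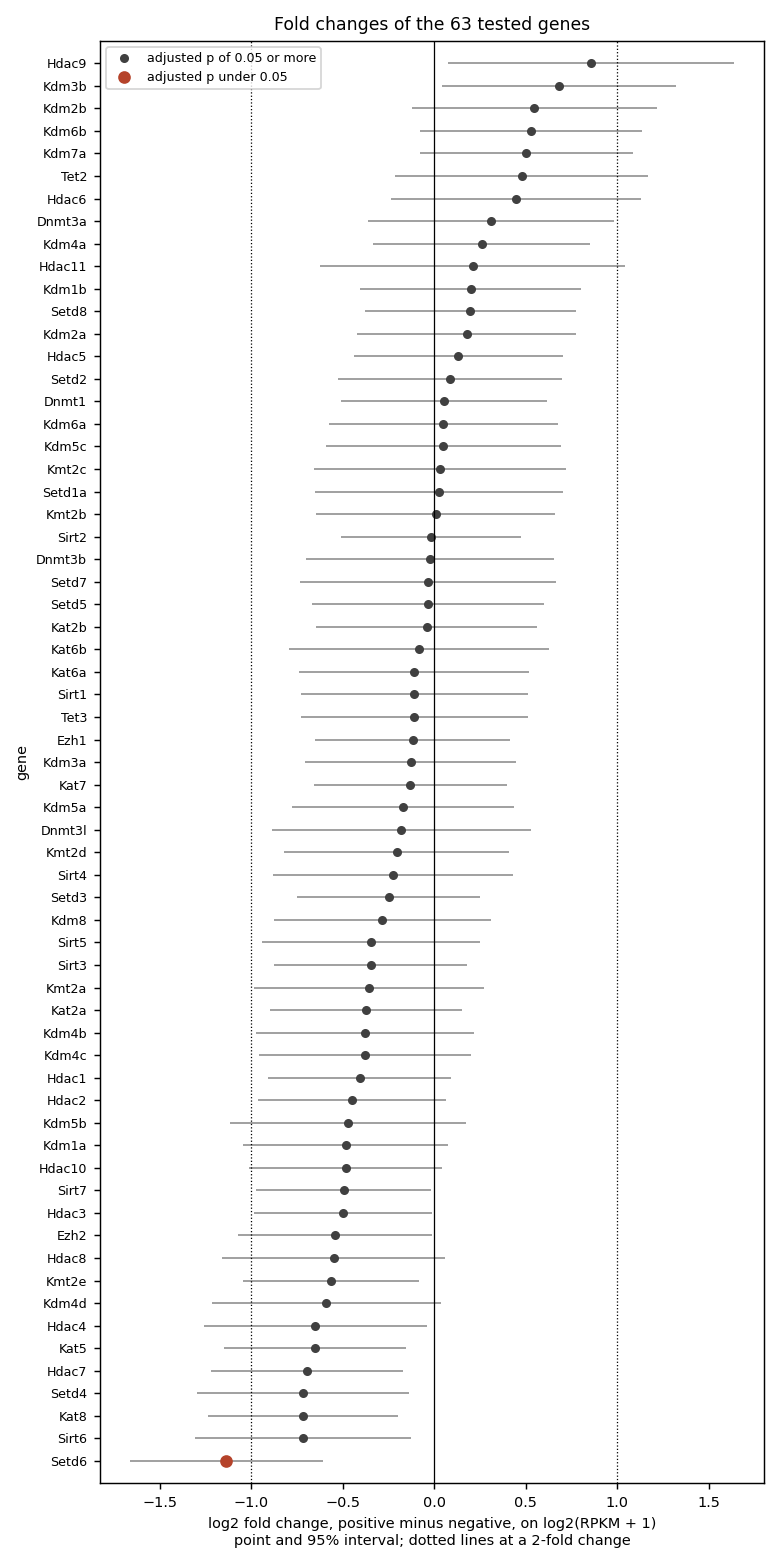
Log2 fold changes of the 63 tested members, positive minus negative on the log2(RPKM + 1) scale, with 95% intervals from limma with the spleen pool as a block. The dotted lines mark a 2-fold change; Setd6, in red, is the called member.

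The data bound most of these differences as well. The 95% interval lay within a 2-fold change in both directions for 41 of the 63 members and reached past it for 22. In simulated data of this design, in which 200 of 11946 genes were changed, a 2-fold change was called in 19.6% of cases, a 4-fold change in 73.6% and an 8-fold change in 92.0%. The data held more called genes, 863 higher and 460 lower. Adjustment is less strict where more genes differ, so these shares may understate what the reported fit calls. A member that was not called may still differ by 2-fold or more where its interval reaches past a 2-fold change. For the 41 members with intervals inside a 2-fold change, a smaller difference may still be present. Tet1 and Kdm5d, 2 of the 65 members, did not reach 1 RPKM in 4 libraries and were not among the 63. Their values are given below. Of the 65 members, 17 were lower in positive cells in all 4 pools and 4 were higher in all 4, against 18.1% and 9.37% of the table's genes.

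Setd6, a lysine methyltransferase known for acting on RelA, was lower in every FcgRIIB-positive library. It was at 6.82, 8.63, 12.9 and 13.8 RPKM across positive replicates 1 to 4, against 22.2, 25.5, 27.8 and 19.5 RPKM across negative replicates 1 to 4. The highest positive library lay below the lowest negative library. The means were 10.5 ± 3.37 RPKM (SD) over the 4 positive and 23.8 ± 3.67 RPKM (SD) over the 4 negative libraries. The log2 fold change was -1.14 (SE 0.25, limma's adjusted p 0.00369), a 2.20-fold lower level on the RPKM + 1 scale. Without the block the limma adjusted p was 0.0862. Within replicates 1 and 2 alone, where 1.49% of genes were called lower, the log2 fold change was -1.51 (limma's adjusted p 0.0112), and within replicates 3 and 4 alone, with 2.08% called lower, it was -0.76 (limma's adjusted p 0.149). The difference between these pools was not tested. With libraries set to an equal mean of the core T cell genes, which were lower in positive libraries, it was -0.21 (limma's adjusted p 0.534). In the RefSeq annotation of GRCm38 the span of Setd6 overlaps that of Cnot1, a scaffold of the mRNA deadenylase complex. Whether reads were counted by strand is not given, so reads of the pair may not be told apart. The spans of 11 of the 65 members overlap another gene of the table in this way. Cnot1 was at 27.1, 27.8, 4.05 and 4.79 RPKM across positive replicates 1 to 4, against 32.7, 4.33, 3.29 and 6.52 RPKM across negative replicates 1 to 4, higher in positive than in negative cells of pools 2 and 3 and lower in pools 1 and 4.

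**Figure D2:**
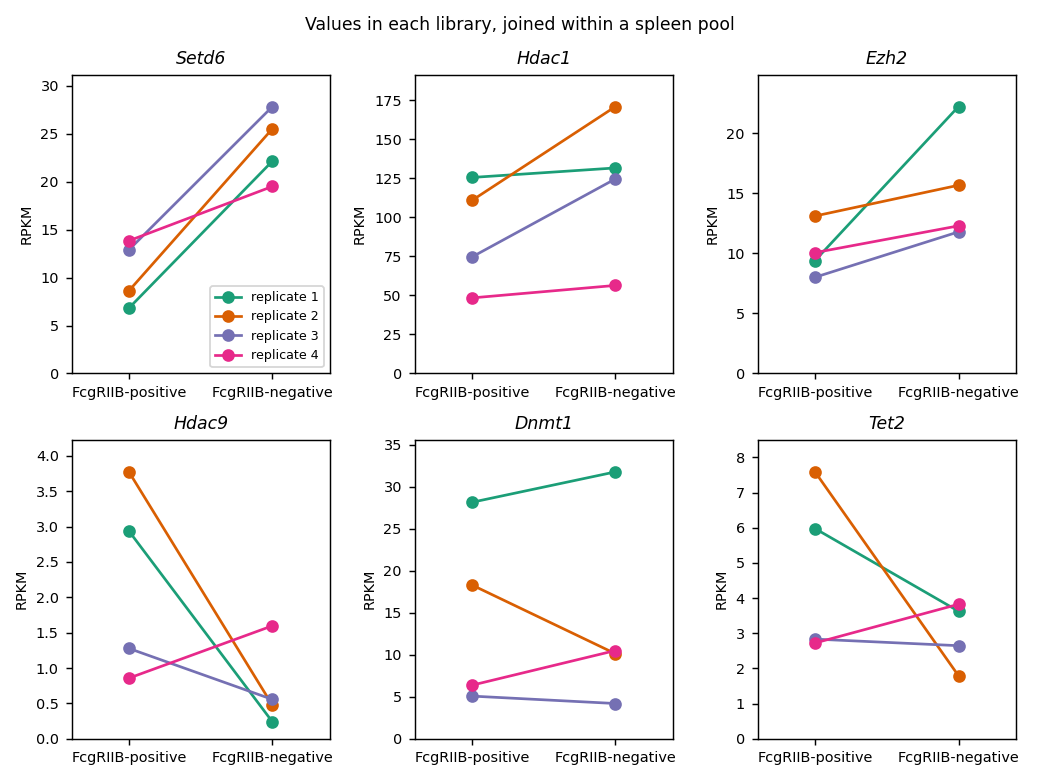
RPKM of 6 members in each library, with FcgRIIB-positive cells on the left, FcgRIIB-negative cells on the right and a line for each spleen pool. Setd6, Hdac1 and Ezh2 were lower in positive cells in all 4 pools, while the lines of Hdac9, Dnmt1 and Tet2 run in both directions.

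The promoter of Setd6 is shown because it is the member called in the fit. The 250 bases before its start, from RefSeq (GRCm38.p6), are printed 5′ to 3′ with each CG dinucleotide in capitals:
Setd6, chr8:95715663-95715912, plus strand: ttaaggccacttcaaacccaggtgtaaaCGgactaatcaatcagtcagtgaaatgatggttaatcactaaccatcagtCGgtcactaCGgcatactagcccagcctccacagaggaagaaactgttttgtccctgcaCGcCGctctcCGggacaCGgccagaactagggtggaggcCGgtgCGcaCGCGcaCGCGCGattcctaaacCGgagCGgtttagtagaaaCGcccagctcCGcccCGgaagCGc
The window holds 20 CG dinucleotides. Windows of this length, before the first-listed start of each gene, were found for 54 of the 65 members, with a median of 15.5 CG, against 15 for the 10532 table genes that matched. At least 10 were present in 83.3% of the members' windows and in 70.7% of all. The search counted CG on the strand shown, which reads the same on the other strand.

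Enzymes of DNA methylation did not pass the test in either direction (4 Dnmt and 2 Tet genes tested, none called). Dnmt1, which copies methylation onto newly made DNA, was at 28.2, 18.3, 5.08 and 6.38 RPKM across positive replicates 1 to 4, against 31.8, 10.1, 4.20 and 10.5 RPKM across negative replicates 1 to 4. It parted the pools more than the groups, which overlapped, and its log2 fold change was 0.05 (95% interval -0.51 to 0.62). Dnmt3a, which sets new methylation, was at 5.68, 9.33, 2.56 and 3.77 RPKM across positive replicates 1 to 4, against 4.80, 2.73, 2.50 and 5.56 RPKM across negative replicates 1 to 4. It was higher in positive cells of pools 1, 2 and 3 and lower in pool 4, with a log2 fold change of 0.31 (SE 0.32). Dnmt3b, its partner enzyme, was at 1.70 to 3.49 RPKM in the positive and 0.843 to 4.90 RPKM in the negative group, and Dnmt3l, the inactive cofactor best known from germ cells, at 0.137 to 1.84 RPKM in the positive and 0.125 to 4.30 RPKM in the negative group. Dnmt3l overlaps Aire in the annotation, and both were below 0.5 RPKM in replicates 1 and 2 and above 1 RPKM in replicates 3 and 4.

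Tet2, which oxidises methylated cytosine, was at 5.98, 7.59, 2.83 and 2.72 RPKM across positive replicates 1 to 4, against 3.63, 1.79, 2.65 and 3.83 RPKM across negative replicates 1 to 4. It was higher in positive cells of pools 1, 2 and 3 and the groups overlapped. Its log2 fold change of 0.48 (SE 0.33) did not pass (adjusted p of 0.438 by limma), and was 1.11 in replicates 1 and 2 alone and -0.15 in replicates 3 and 4 alone, a difference that was not tested. Tet3 was at 3.36, 3.75, 3.52 and 4.33 RPKM across positive replicates 1 to 4, against 5.30, 2.82, 3.09 and 5.87 RPKM across negative replicates 1 to 4, with overlapping groups and a log2 fold change of -0.11 (SE 0.30). Tet1, known from pluripotent cells, stayed at or under 1.33 RPKM in each positive and 2.78 RPKM in each negative library. That highest value was in negative replicate 4 and lay below the 3.03 RPKM of that library's 10th percentile.

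All 7 lysine acetyltransferase genes had fold changes below 0, from -0.72 to -0.04, and none was called. Of all genes tested 61.2% were below 0. Kat8, which acetylates histone H4, was at 13.3, 11.4, 9.99 and 8.33 RPKM across positive replicates 1 to 4, against 15.6, 20.8, 23.5 and 13.9 RPKM across negative replicates 1 to 4. Every positive library lay below every negative library, and the log2 fold change of -0.72 (SE 0.25) missed the threshold (adjusted p of 0.0694 by limma). When limited to genes with at least 5 RPKM in 4 libraries, Kat8 passed with Setd6, 2 members beside 6.56% of genes called lower (limma's adjusted p 0.0492). Kat5, the catalytic subunit of the NuA4/TIP60 complex, was lower in all 4 pools, at 13.7 ± 4.62 RPKM (SD) over the 4 positive and 21.5 ± 3.96 RPKM (SD) over the 4 negative libraries, with a log2 fold change of -0.65 (SE 0.24) and an adjusted p of 0.0871 by limma. Kat2a and Kat2b, paralogous acetyltransferases of the SAGA and ATAC complexes, were at 10.8 and 5.18 RPKM over all libraries. Kat2a was lower in all 4 pools with a log2 fold change of -0.37. Kat2b was at 4.26, 3.80, 5.68 and 6.16 RPKM across positive replicates 1 to 4, against 6.42, 2.94, 4.13 and 8.06 RPKM across negative replicates 1 to 4, with overlapping groups and a log2 fold change of -0.04 (95% interval -0.65 to 0.56). Kat7, the HBO1 acetyltransferase, and Kat6a and Kat6b, of the MOZ and MORF complexes, had fold changes of -0.13, -0.11 and -0.09.

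Class I deacetylases, the catalytic subunits of nuclear corepressor complexes, held the most abundant member. Hdac1 averaged 105 RPKM over the 8 libraries, the highest level of the 65. It was at 126, 111, 74.7 and 48.4 RPKM across positive replicates 1 to 4, against 132, 171, 125 and 56.4 RPKM across negative replicates 1 to 4. Each pool had less in its positive cells, the groups overlapped, and the log2 fold change of -0.41 (SE 0.24) did not pass (adjusted p of 0.342 by limma). Hdac3, the enzyme of the NCoR and SMRT corepressors, was at 49.5, 51.0, 26.1 and 15.03 RPKM across positive replicates 1 to 4, against 70.3, 58.2, 32.3 and 31.3 RPKM across negative replicates 1 to 4. It too was lower in each pool, and it parted replicates 1 and 2 from replicates 3 and 4 in all libraries, with a log2 fold change of -0.50 (SE 0.23) and an adjusted p of 0.200 by limma. Hdac2 was lower in all 4 pools as well, at 12.9 ± 4.27 RPKM (SD) over the 4 positive and 18.1 ± 7.07 RPKM (SD) over the 4 negative libraries, with a log2 fold change of -0.45. Hdac8 was at 4.75 ± 1.07 RPKM (SD) over the 4 positive and 7.57 ± 2.52 RPKM (SD) over the 4 negative libraries, lower in 3 of 4 pools, with a log2 fold change of -0.55. None of the 4 was called, and all 4 lay between -0.55 and -0.41.

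Class IIa deacetylases, which shuttle between nucleus and cytoplasm and bind MEF2 transcription factors, had fold changes on both sides of 0, and none of the 4 was called. Hdac7, the member best known from thymocytes and cytotoxic T cells, was at 12.96, 13.2, 9.91 and 14.8 RPKM across positive replicates 1 to 4, against 36.6, 17.2, 13.4 and 22.9 RPKM across negative replicates 1 to 4. It was lower in each pool while the groups overlapped, because positive replicate 4 lay above negative replicate 3. Its log2 fold change of -0.70 (SE 0.25) missed the threshold (adjusted p of 0.0829 by limma), and without replicate 2 it passed with Setd6, beside 2.93% of genes lower (log2 fold change -0.81, limma's adjusted p 0.0309). In the annotation its span meets that of Slc48a1, a haem transporter gene that was at 25.1, 43.3, 20.7 and 22.6 RPKM across positive replicates 1 to 4, against 17.7, 20.2, 12.4 and 7.45 RPKM across negative replicates 1 to 4. Slc48a1 was the higher in positive cells of each pool, opposite to Hdac7. Hdac4 was at 4.28 ± 0.620 RPKM (SD) over the 4 positive and 7.49 ± 2.52 RPKM (SD) over the 4 negative libraries, and each positive library lay below each negative library (log2 fold change -0.65, SE 0.29, adjusted p of 0.177 by limma). Hdac5 had a log2 fold change of 0.13.

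Hdac9 had the largest fold change above 0 of the tested members. It was at 2.94, 3.77, 1.28 and 0.857 RPKM across positive replicates 1 to 4, against 0.239, 0.474, 0.556 and 1.60 RPKM across negative replicates 1 to 4. The positive library was the higher one in pools 1, 2 and 3 and the lower one in pool 4. In both libraries of pools 3 and 4 Hdac9 lay under that library's 10th percentile. In replicates 1 and 2 alone it was the member called higher (1.68, limma's adjusted p 0.000756, beside 8.12% of genes). Over all pools its log2 fold change of 0.86 (SE 0.38) was not called (adjusted p of 0.165 by limma). Without replicate 4 limma called 2 members higher, against 10.4% of genes: Hdac9 at 1.30 (limma's adjusted p 0.000442) and Hdac11 at 0.84 (limma's adjusted p 0.0282). Hdac11, the class IV enzyme, was at 1.36, 1.28, 1.29 and 1.21 RPKM across positive replicates 1 to 4, against 0.201, 0.283, 0.381 and 6.17 RPKM across negative replicates 1 to 4. Without negative replicate 4, the positive libraries lay above the negative ones. In negative replicates 1 to 3, on 9, 12 and 7 reads, Hdac11 lay under each library's 10th percentile. It lay under that percentile in positive replicates 3 and 4 too. Fold changes of such low genes are understated on this scale. Class IIb enzymes Hdac6, a tubulin deacetylase, and Hdac10, a polyamine deacetylase, had fold changes of 0.45 and -0.49, and Hdac10 was lower in all 4 pools (19.1 ± 9.88 RPKM (SD) over the 4 positive and 25.6 ± 9.60 RPKM (SD) over the 4 negative libraries).

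Sirtuins, the NAD-dependent deacylases, had 7 tested members, all with fold changes at or below -0.02 and none called. Sirt7, of the nucleolus, and Sirt2, mostly cytoplasmic, were the most abundant, at 66.8 and 44.6 RPKM over all libraries. Sirt7 was lower in all 4 pools, at 54.8 ± 9.58 RPKM (SD) over the 4 positive and 78.8 ± 20.5 RPKM (SD) over the 4 negative libraries (log2 fold change -0.50, SE 0.23, adjusted p of 0.194 by limma). Sirt2 showed means of 44.1 RPKM in the positive and 45.2 RPKM in the negative group, with a log2 fold change of -0.02 (95% interval -0.51 to 0.47). Sirt6, a chromatin-bound enzyme of DNA repair and glucose metabolism, was at 3.69, 3.47, 4.90 and 3.21 RPKM across positive replicates 1 to 4, against 6.07, 5.83, 7.30 and 8.49 RPKM across negative replicates 1 to 4. Each positive library lay below each negative library, and the log2 fold change of -0.72 (SE 0.28) did not pass (adjusted p of 0.115 by limma). Sirt1, the most studied nuclear sirtuin, was at 2.52, 3.03, 4.01 and 5.25 RPKM across positive replicates 1 to 4, against 4.37, 3.20, 3.09 and 5.52 RPKM across negative replicates 1 to 4, with overlapping groups and a log2 fold change of -0.11 (95% interval -0.73 to 0.51). The mitochondrial Sirt3, Sirt4 and Sirt5 had fold changes of -0.35, -0.23 and -0.35.

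The Polycomb methyltransferases Ezh2 and Ezh1 were both detected in all libraries, and neither was called between the groups. Ezh2, the form of dividing cells, was at 9.40, 13.1, 8.01 and 10.1 RPKM across positive replicates 1 to 4, against 22.2, 15.7, 11.8 and 12.3 RPKM across negative replicates 1 to 4. It was lower in positive cells of each pool, the groups overlapped, and the log2 fold change of -0.54 (SE 0.26) did not pass (adjusted p of 0.203 by limma). Its 95% interval of -1.07 to -0.01 held both a change near 0 and a 2-fold lower level. Ezh1, the form of resting cells, was at 32.9, 25.3, 6.54 and 5.51 RPKM across positive replicates 1 to 4, against 34.9, 16.7, 9.18 and 8.39 RPKM across negative replicates 1 to 4. All libraries of replicates 1 and 2 lay above all of replicates 3 and 4, and the log2 fold change between groups was -0.12 (95% interval -0.65 to 0.41). Of 22 cell cycle genes limma called none (with an unadjusted p under 0.05, 1 was higher and 2 lower, against 11% and 12.3% of all genes), with a median log2 fold change of 0.14.

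The KMT2 enzymes, which methylate histone H3 at promoters and enhancers within COMPASS complexes, had 5 tested members and no call. Kmt2e, a family member without known methyltransferase activity, was the most abundant, at 24.0, 21.4, 20.6 and 14.8 RPKM across positive replicates 1 to 4, against 31.2, 36.6, 36.5 and 19.3 RPKM across negative replicates 1 to 4. It was lower in all 4 pools with overlapping groups (log2 fold change -0.57, SE 0.23, adjusted p of 0.130 by limma). Kmt2a, Kmt2b, Kmt2c and Kmt2d lay between -0.36 and 0.03. Kmt2b was at 2.06, 2.29, 5.10 and 5.74 RPKM across positive replicates 1 to 4, against 2.47, 1.41, 3.16 and 10.6 RPKM across negative replicates 1 to 4, and both groups were lower in replicates 1 and 2. Among the other Setd genes Setd4 had the largest fold change, -0.72 (SE 0.28 and adjusted p of 0.108 by limma), at 8.30 ± 5.51 RPKM (SD) over the 4 positive and 12.8 ± 3.89 RPKM (SD) over the 4 negative libraries. Setd2, which methylates histone H3 in transcribed genes, and Setd1a, a COMPASS enzyme, were at 0.08 and 0.03. Setd8, now named Kmt5a, which methylates histone H4 in the cell cycle, was at 0.20, and Setd3, Setd5 and Setd7 at -0.25, -0.03 and -0.03.

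Of the demethylases 2 belong to the flavin-dependent KDM1 pair and 16 to the JmjC family of iron-dependent oxygenases, and limma called none of the 17 that were tested. Kdm1a, the LSD1 enzyme of the CoREST corepressor, was at 4.25, 11.9, 9.14 and 11.2 RPKM across positive replicates 1 to 4, against 11.1, 18.5, 9.32 and 12.2 RPKM across negative replicates 1 to 4. It was lower in positive cells of each pool, with the largest ratio in pool 1, and the log2 fold change of -0.48 (SE 0.27) did not pass (adjusted p of 0.302 by limma). Kdm1b had a log2 fold change of 0.20. Kdm6b, the JMJD3 enzyme that removes the Polycomb mark and is known as inducible in myeloid and T cells, was at 3.19, 2.52, 7.89 and 11.3 RPKM across positive replicates 1 to 4, against 2.32, 1.48, 3.48 and 9.04 RPKM across negative replicates 1 to 4. It was higher in positive cells of each pool, with overlapping groups, and higher in replicates 3 and 4 than in 1 and 2 (log2 fold change 0.53, SE 0.29, adjusted p of 0.298 by limma). Its X-linked relative Kdm6a, also named UTX, was at 19.0, 15.3, 3.60 and 3.16 RPKM across positive replicates 1 to 4, against 18.2, 6.14, 5.02 and 5.58 RPKM across negative replicates 1 to 4. Kdm6a ran the other way across pools, higher in replicates 1 and 2, with a log2 fold change of 0.05 between groups (95% interval -0.58 to 0.68).

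Besides Kdm6b and Kdm5d (below), Kdm3b and Kdm7a were the JmjC genes higher in positive cells of all 4 pools. Kdm3b was at 7.43 ± 2.46 RPKM (SD) over the 4 positive and 4.42 ± 2.19 RPKM (SD) over the 4 negative libraries and Kdm7a at 9.45 ± 3.32 RPKM (SD) over the 4 positive and 6.24 ± 1.42 RPKM (SD) over the 4 negative libraries. Their log2 fold changes of 0.68 (SE 0.31 and adjusted p of 0.180 by limma) and 0.50 (SE 0.28 and adjusted p of 0.306 by limma) did not pass. Kdm4d, which is known from testis, was the only JmjC gene lower in all 4 pools, at 2.32 ± 1.24 RPKM (SD) over the 4 positive and 4.02 ± 1.98 RPKM (SD) over the 4 negative libraries, with a log2 fold change of -0.59. The Kdm2, Kdm4 and Kdm5 genes not yet named, with Kdm3a and Kdm8, lay between -0.47 (Kdm5b) and 0.55 (Kdm2b).

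Kdm5d, the Y-linked demethylase, was the member with every positive library above every negative one, at levels below the filter. It was at 3.02, 3.45, 0.808 and 0.383 RPKM across positive replicates 1 to 4, against 0.333, 0.324, 0.0160 and 0.0390 RPKM across negative replicates 1 to 4. This order held in 4.2% of the table's genes. The opposite order, every positive library below every negative one, held for Setd6, Hdac4, Kat8 and Sirt6 and in 3.76% of the table's genes. In recovered reads these are 416, 634, 44 and 17 reads in positive replicates 1 to 4, against 50, 46, 1 and 1 in negative replicates 1 to 4. The ratio of positive to negative RPKM was 9.07 in pool 1 and 10.6 in pool 2. In pools 3 and 4, with a single read in the negative library, it was 50.5 (95% interval 8.47 to 2009) and 9.82 (1.54 to 409), exact binomial intervals that cover counting error only.

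Tested with no filter on low values, Kdm5d had a log2 fold change of 1.15 on the log2(RPKM + 1) scale (limma's adjusted p 0.0206) and of 2.67 with 0.1 in place of 1 (limma's adjusted p 0.00565). Of all 13204 genes 6.89% and 7.01% were called higher in these fits. Kdm5d reached the read level shared by all genes of the table in positive libraries alone, so its call is a description. The call did not hold without the block (limma's adjusted p 0.361). With pool 1, 2 or 3 left out, the fold change stayed above 0 and the limma adjusted p was 0.208, 0.463 and 0.0652, and with pool 4 left out it was 1.2e-05. Reads of Kdm5d and its X-linked homologue Kdm5c may be shared, since the handling of reads that match both is not given. Kdm5c was at 21.0, 21.8, 6.44 and 4.66 RPKM across positive replicates 1 to 4, against 30.5, 7.04, 7.28 and 7.84 RPKM across negative replicates 1 to 4, with overlapping groups and a log2 fold change of 0.05.

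Other Y-linked genes had the same order in each pool. Ddx3y, an RNA helicase gene, was at 23.5, 34.6, 5.25 and 8.16 RPKM across positive replicates 1 to 4, against 1.55, 3.42, 1.01 and 0.903 RPKM across negative replicates 1 to 4 (log2 fold change 2.54, SE 0.31, adjusted p of 2.98e-06 by limma, and 0.0189 without the block). Eif2s3y, which codes for a translation initiation factor subunit, was at 16.7, 28.9, 12.6 and 9.70 RPKM across positive replicates 1 to 4, against 1.42, 9.64, 2.92 and 2.78 RPKM across negative replicates 1 to 4 (log2 fold change 1.91, SE 0.29, adjusted p of 4.79e-05 by limma, and 0.0445 without the block). Uty, the Y-linked homologue of Kdm6a, was at 2.21, 4.60, 0.926 and 0.844 RPKM across positive replicates 1 to 4, against 0.453, 0.372, 0.0760 and 0.138 RPKM across negative replicates 1 to 4 and below the filter. For Ddx3y, Eif2s3y and Uty, too, each positive library lay above each negative one. Uty reached the read level shared by all genes of the table in each positive library. In negative replicates 2, 3 and 4 it did not, so its order is a description, as for Kdm5d. Of 5 sex chromosome genes in the list outside the enzymes, 3 were higher in positive cells of all 4 pools: Ddx3y, Eif2s3y and an X-linked gene. That X-linked gene, at the list's median log2 fold change of 0.42, was not called. Xist, the RNA that silences an X chromosome in female cells, was at 0.591, 0.251, 0.702 and 1.24 RPKM across positive replicates 1 to 4, against 1.32, 1.21, 1.65 and 4.26 RPKM across negative replicates 1 to 4. It was lower in positive cells of each pool without passing (log2 fold change -0.81, SE 0.33, adjusted p of 0.126 by limma), and in each pool's negative library it was above 1 RPKM. The dendritic cell and macrophage marker sums given above were higher in the same libraries, and their part in the Y-linked values was not tested.

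**Figure D3:**
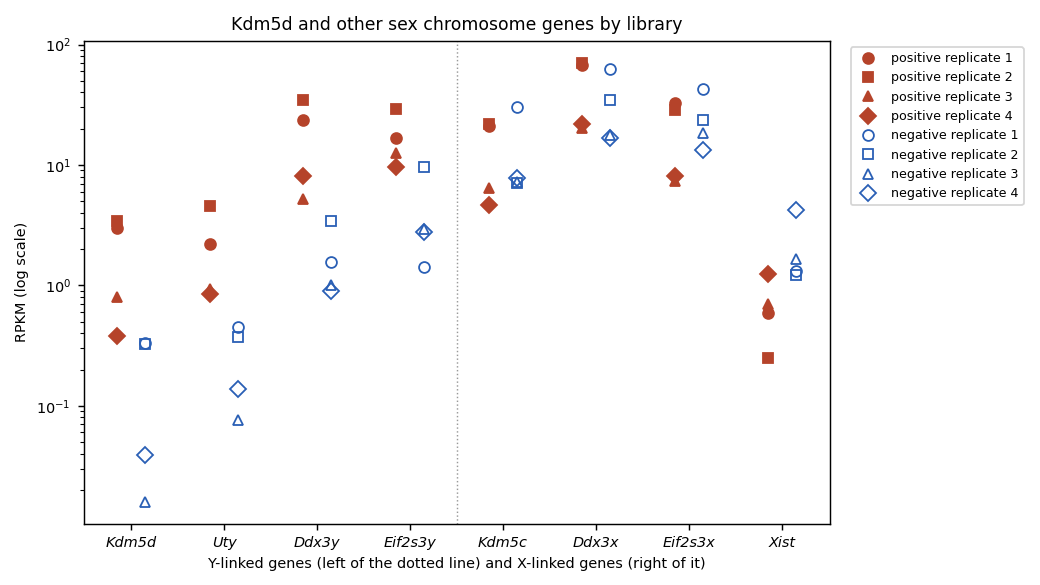
RPKM, on a log scale, of Kdm5d and other Y-linked genes (left of the dotted line) and of X-linked genes (right of it) in each library, with filled marks for positive and open marks for negative libraries. All 4 Y-linked genes have every positive library above every negative one, while Kdm5c, Ddx3x and Xist overlap between groups. Kdm5d and Uty were below the filter on low values. Eif2s3x is shown beside them.

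The starts of Kdm5d and Kdm5c are shown to set the Y-linked gene beside its X-linked homologue. The 250 bases before each start (RefSeq, GRCm38.p6), with CG in capitals, are these:
Kdm5d, chrY:897538-897787, plus strand: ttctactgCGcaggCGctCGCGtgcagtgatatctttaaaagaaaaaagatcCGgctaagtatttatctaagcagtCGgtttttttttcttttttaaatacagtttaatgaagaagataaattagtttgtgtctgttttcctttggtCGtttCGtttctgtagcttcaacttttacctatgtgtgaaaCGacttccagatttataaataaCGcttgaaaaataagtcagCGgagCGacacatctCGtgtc
Kdm5c, chrX:152232977-152233226, plus strand: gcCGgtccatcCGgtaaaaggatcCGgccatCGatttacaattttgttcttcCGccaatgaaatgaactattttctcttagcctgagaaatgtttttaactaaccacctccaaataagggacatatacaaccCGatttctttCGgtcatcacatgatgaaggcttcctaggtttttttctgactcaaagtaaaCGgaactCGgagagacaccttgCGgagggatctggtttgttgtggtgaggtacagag
They hold 13 and 10 CG dinucleotides, both under the median of 15 of the table's genes.

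Spleen pools differed more than the groups for most members. The mean difference between replicates 1 and 2 and replicates 3 and 4 on the log2(RPKM + 1) scale was larger in size than the group difference for 41 of the 63 tested. This share was not computed over all genes, so it is not read as a trait of the enzymes. In 8 of the 65 members every library of replicates 1 and 2 lay above every library of replicates 3 and 4, and in 5 below. These are 12.3% and 7.69% of the members, against 13.6% and 21.5% of the table's genes. The 8 were Ezh1, Kdm3a, Kdm4c, Kdm5a, Kdm6a, Hdac3, Hdac10 and Kat7. Kdm3a, a demethylase induced by hypoxia, averaged 20.2 RPKM in replicates 1 and 2 and 5.24 RPKM in replicates 3 and 4, and Ezh1 27.4 and 7.41 RPKM. The 5 were Dnmt3l, Kdm6b, Kmt2b, Setd1a and Tet1. Setd1a averaged 0.737 RPKM in replicates 1 and 2 and 4.70 RPKM in replicates 3 and 4, and Kdm6b 2.38 and 7.92 RPKM. Depth parted the same pools, and its part was not tested. The labels name no batch.

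**Figure D4:**
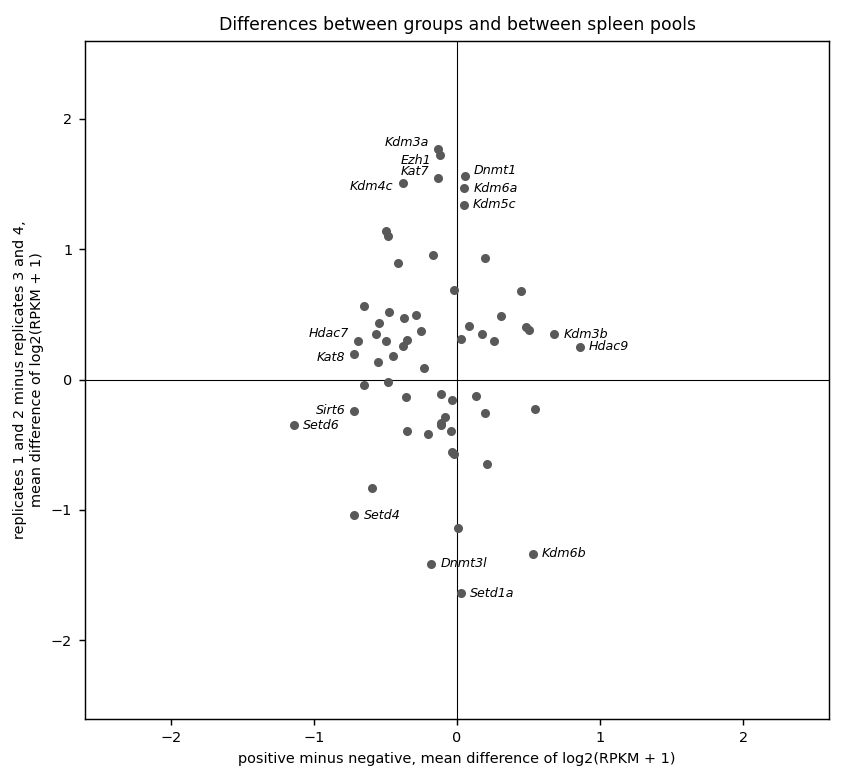
For each of the 63 tested members, the mean difference of log2(RPKM + 1) between positive and negative libraries (horizontal) and between replicates 1 and 2 and replicates 3 and 4 (vertical), on equal scales. The cloud is taller than wide: Kdm3a and Ezh1 at the top and Setd1a at the bottom lie near 0 between groups.

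**Figure D5:**
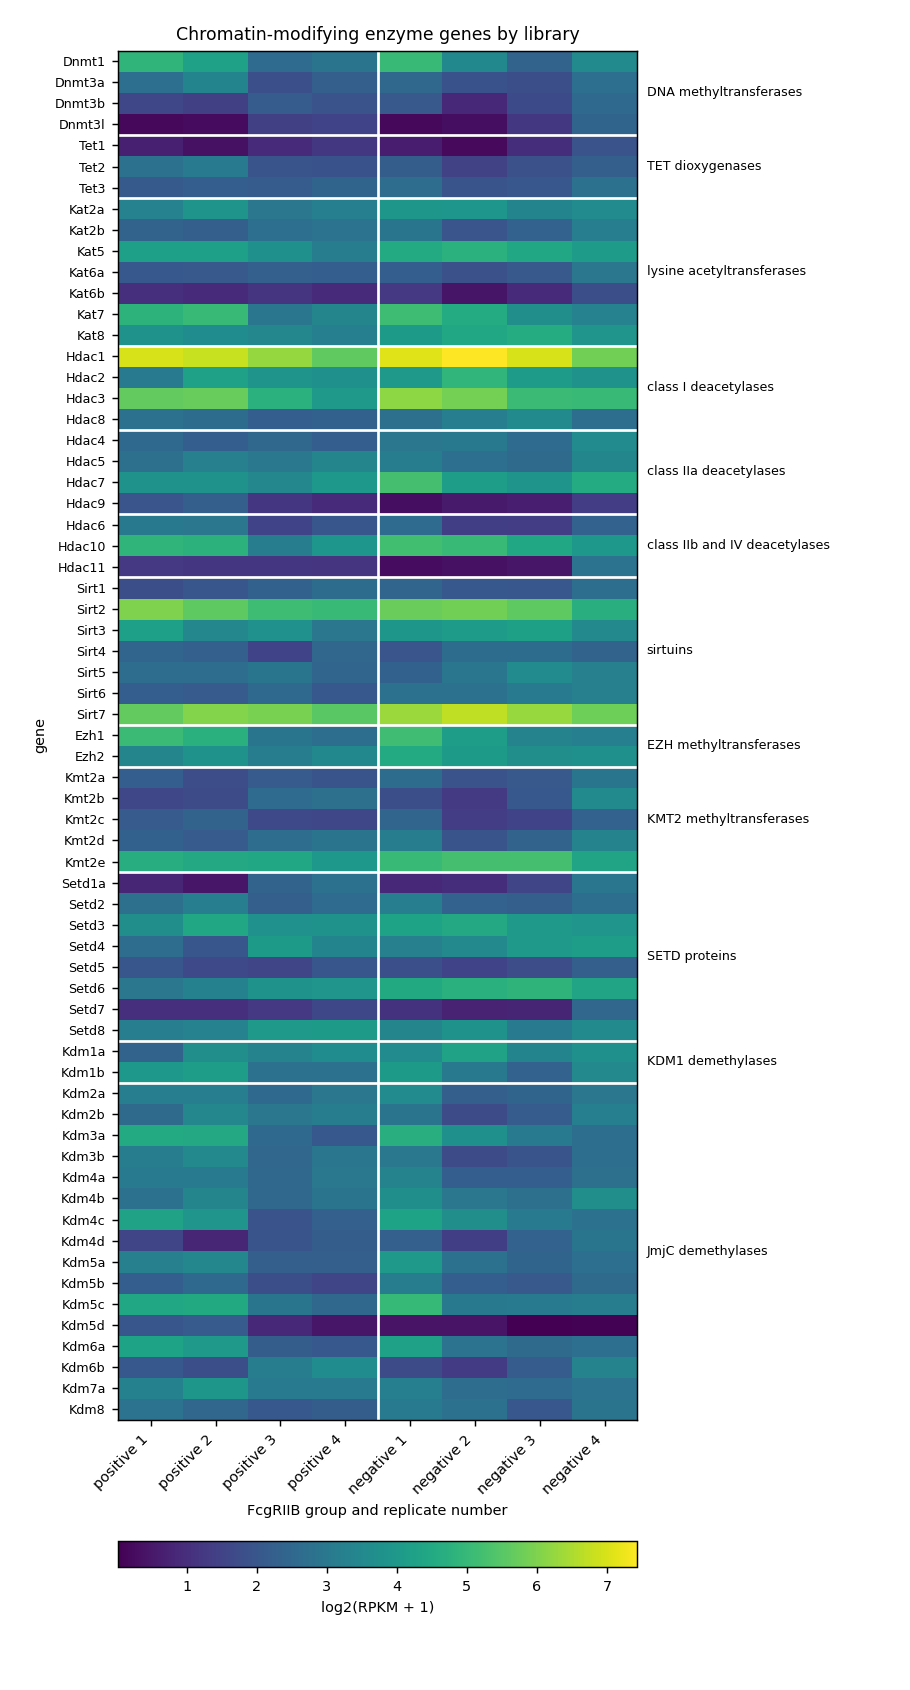
Level of the 65 members in each library as log2(RPKM + 1), grouped by enzyme family, with positive replicates 1 to 4 left of negative replicates 1 to 4. Hdac1, Sirt7, Sirt2 and Hdac3 are bright in all libraries, and Kdm5d is brighter in positive than in negative libraries.

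Fold changes of the members over all pools went with exon length, which the rule did not use, but not within pools 1 and 4. The members are long, with a median exon length of 5381 bases, against 3712 bases for the table. Across the 63 tested members the log2 fold change correlated with log2 length at r = 0.51 (Spearman's rho = 0.52), against r = 0.03 (rho = 0.17) across all 11946 genes. These are descriptions across genes of the same libraries, and genes are not independent replicates. Within pools the members' r was 0.08, 0.63, 0.45 and 0.03 for pools 1 to 4, against -0.05, 0.36, -0.06 and -0.27 across all genes. The members' values were near 0 in pools 1 and 4, and in pool 2 the relation ran in the same direction across all genes. Members up to 5311 bases long had a median log2 fold change of -0.38, with 27 of 32 below 0, and longer members of 0.01, with 15 of 31 below 0. All genes on the same sides of 5311 bases had medians of -0.15 and -0.01.

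Partners of these enzymes, in 10 lists of complex subunits, readers and enzymes under other names, are given by their counts and medians. Of 140 tested genes limma with the block called 4 lower and 1 higher, against 3.85% lower and 7.22% higher over all genes tested. Without the block it called none, against 0.268% and 3.03%. The lower partner genes numbered 2 with median ratios or quantiles (354 and 504 of all 11946 genes). They numbered 1 with no trend, without replicate 3 or in replicates 1 and 2 alone (283, 157 and 178 of all genes). After the core T cell scaling they numbered 0 (15 of all genes), and under the other alternatives with the block 3 to 5. With the block and an unadjusted p under 0.05, 21 were lower and 4 higher, against 12.3% and 11%. The median log2 fold change was -0.19, against -0.11 over all genes tested. Eed, the Polycomb subunit that binds the mark laid by Ezh2, fell in positive cells (log2 fold change -0.74, SE 0.23, adjusted p of 0.0361 by limma). It was at 30.9, 32.4, 31.1 and 21.9 RPKM across positive replicates 1 to 4, against 47.8, 64.1, 49.3 and 37.2 RPKM across negative replicates 1 to 4, with every positive library below every negative one. It was the called gene of 9 tested PRC2 partners. Suz12, the remaining core subunit, was at -0.17 and was not called. Rnf2, the ubiquitin ligase of the other Polycomb complex, fell by 0.89 on the log2 scale (adjusted p of 0.0252 by limma), 1 of 18 genes of its list. The lysine methyltransferase Smyd3 and the arginine methyltransferase Prmt5 fell by 0.99 and 0.80 (adjusted p of 0.0187 by limma and 0.0395), 1 of 19 and 1 of 8 genes of their lists.

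The gene called higher was Idh1, a cytosolic isocitrate dehydrogenase that makes the co-substrate of Tet and JmjC enzymes and NADPH. It was at 46.9, 72.9, 20.9 and 16.6 RPKM across positive replicates 1 to 4, against 7.84, 19.3, 6.35 and 7.78 RPKM across negative replicates 1 to 4 (log2 fold change 1.72, SE 0.26, adjusted p of 4.51e-05 by limma, and 0.103 without the block). It was higher in each pool, with the largest ratio in pool 1 and the largest difference in RPKM in pool 2. Its list of DNA methylation readers and cofactors had 14 tested genes, with Uhrf1, the guide of Dnmt1, at 0.16 and not called. No gene was called among 11 COMPASS partners (Wdr5 at -0.41), 8 acetyltransferases under other names (Ep300 at 0.41, Crebbp at -0.24), 25 corepressor subunits (Ncor1 at -0.52, Chd4 at 0.18), 6 demethylases under other names (Jmjd1c at -0.04) and 22 readers and remodellers (Smarca4 at 0.08).

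When libraries were set to an equal mean of the core T cell genes, most fold changes of all genes moved above 0. The median log2 fold change of all genes stood at 0.68 on that scale, against -0.11 as deposited, and that of the members stood at 0.62. There limma called 16 of 63 members higher and none lower, against 37.9% of all genes higher and 0.126% lower. Setd6, not called there, still had the lowest value of the tested members. Hdac1, at -0.41 as deposited, was at 0.57, a called value above 0 but under the median of all genes (limma's adjusted p 0.0354). Kdm5d was higher on either scale, at 1.499 after this scaling with no filter (limma's adjusted p 0.000913).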

How the data were processed

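RNA of 8 libraries (4 FcgRIIB-positive, 4 FcgRIIB-negative) was sequenced. Per the file headers the authors deposited exon RPKM values for 13204 genes with exon lengths, and per the submitters' processing notes TopHat2 and mm9 were used; the counting, its use of strand and its filters are not given in the sources used here. Groups and replicate numbers came from the sample titles. Low RPKM values were whole multiples of 1 read (100% within 0.1 reads), which gave depths of 3060000 to 22010000 reads and bounds the precision of low genes; intervals from reads cover counting error only. Genes with at least 1 RPKM in 4 libraries (11946) were tested with limma 3.58.1 (R 4.3.3) on log2(RPKM + 1), with an eBayes trend and the spleen pool as a block, since the series' design text says both fractions of a number come from the same mice; the deviations of paired libraries from their group means had correlations of 0.70, 0.41, 0.56 and 0.68 in pools 1 to 4. P-values were adjusted by Benjamini and Hochberg over all tested genes, with a threshold of 0.05. A fold change on this scale understates the change of low genes. Simulated data with 200 changed genes were used to test the script (3.25% of calls false over 5 runs). Ratios of reads used scipy 1.17.1. Promoters and overlaps came from RefSeq GRCm38.p6 tables; no mm9 coordinates are given. The 65 members matched this annotation by Entrez ID.

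Values in all libraries are given for called members and for Dnmt1, Dnmt3a, Tet2, Tet3, Ezh1, Ezh2, Kdm1a, Kdm5d, Kdm6a, Kdm6b, Hdac1, Hdac3, Hdac7, Sirt1 and Kat2b; other genes described singly, such as Hdac9, Hdac11, Kat8, Sirt6 and Kmt2e, and the sex chromosome genes, were picked after their values were seen. The members and gene lists were chosen with earlier results of these data known. The alternatives were no block, other pseudocounts, filters and scalings, no trend, each pool left out and pools by depth. P-values with the block rest on how much the positive minus negative difference varied between pools of mice, after the eBayes step. Without the block they rest on the spread between libraries of a group, which includes the spread between pools.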

Additional observations from a re-analysis of the deposited data

Results flagged for a closer look

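Each of the 65 members was checked in each group for a library far from the other 3, and 5 of 130 groups held one by Dixon's test at the 95% level; chance flags about 1 in 20 groups. Kdm4a, a demethylase of histone H3, was low in positive replicate 3, at 4.64 RPKM against 6.93 to 7.29 RPKM in the other positive libraries. Setd3, the actin methyltransferase, was high in positive replicate 2, at 20.8 RPKM against 11.95 to 12.93 RPKM. The X-linked demethylases Kdm5c and Kdm6a were both high in negative replicate 1. Kdm5c was at 30.5 RPKM there, against 7.04 to 7.84 RPKM in the other negative libraries, and Kdm6a at 18.2 RPKM, against 5.02 to 6.14 RPKM. Hdac11 was high in negative replicate 4, at 6.17 RPKM against 0.201 to 0.381 RPKM, and is called higher, as is Hdac9, when that pool is left out.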

How the results depend on the processing

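Under the 19 alternatives Setd6 kept a fold change below 0, between -1.51 and -0.21, and was called in 15. No member was called lower without the replicate block (0), without the block and negative replicate 4 (0), in replicates 3 and 4 alone (0) or after scaling to the core T cell genes (0), and 2 were with a filter of 5 RPKM. Higher members, 0 in the fit reported, numbered 16 after the core T cell scaling, where Hdac1 turned to 0.57, 1 without a filter (Kdm5d, also with 0.1 added in place of 1: 1), 1 in replicates 1 and 2 alone (Hdac9) and 2 with the block but without negative replicate 4, which leaves its partner library uninformative. Leaving out 1 pool at a time gave 0 to 2 higher and 1 to 2 lower members. For 18 genes 336 values were computed under these alternatives, 6 of the genes falling below the filter of 5 RPKM: 288 kept direction and side of the threshold, 4 lost a call, 10 gained one, 33 changed sign without a call and 1 reversed with one. The core T cell scaling aside, 286 of 318 kept both and none reversed. The fits that leave out negative replicate 4 and the joint changes for Kdm5d were chosen after seeing the data. The cause of these changes was not tested. Depth limits low genes most: Kdm5d had 1 read in negative replicates 3 and 4.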
